A study of Drosophila melanogaster with 800 samples.

Results

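Among 35014 transcribed features measured in whole fruit flies (Drosophila melanogaster), 244 unannotated features were limited to males. They were taken from the 17917 features that carry only an assembly number, written XLOC, in place of a FlyBase gene identifier. A feature was included where its deposited log2 FPKM averaged at least 0 over the 400 male libraries and at most -2 over the 400 female libraries, so the 244 were chosen by their levels in the sexes, and that difference is described here without a test. FPKM is the number of fragments per kilobase of the feature, scaled to the fragments counted in a library, and the deposited scale bottoms out at -9.97, which stands for no read. By the same thresholds 2429 annotated features were limited to males. With the sexes exchanged, 36 XLOC features were limited to females, and 1331 XLOC features averaged at least 0 in both sexes.

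The flies came from 200 inbred lines of the DGRP, a fly reference panel of sequenced strains, each derived from a wild-caught mated female of a Raleigh population by 20 generations of full-sib mating. Males and females of every line had the same age of 3 to 5 days, were mated, and were reared at 25 °C on cornmeal-molasses-agar; no treatment was given. Each library was made from a pool of 30 males or 25 females, with 2 pools per line and sex. All libraries measured total RNA depleted of ribosomal RNA, kept its strand and were read from a single end over 125 bp.

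The prefix XLOC is the one that the Cufflinks programs give to loci assembled from reads. Such loci can be noncoding RNAs, unannotated ends of genes or copies of repeats, and nothing in the tables says which. In flies the testis is known to transcribe a large number of lineage-restricted and noncoding loci, the accessory gland makes the proteins of the seminal fluid, and the Y chromosome, which only males carry, is active in the male germ line. Heterochromatin, where the Y and the centromeric regions lie, is rich in repeats and incompletely assembled. The tables place none of the 244 features on the genome and hold no sequence for them, so they are described below by level, length, line and variant content.

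The labels of sex held up in the marker genes of each sex. The summed FPKM of 23 late testis and sperm genes, which include the Mst84D genes, had a median of 9773 in male libraries and 5.28 in female libraries. The 22 accessory gland genes, which include the sex peptide gene SP, summed to 13000 in males and 4.28 in females, and 12 yolk and eggshell genes to 15.2 in males and 17130 in females. Single libraries departed from this. The highest yolk and eggshell sum in males was 1942, in the first replicate of line 399, and the highest late testis sum in females was 155, in the first replicate of line 158. The level of the median expressed feature also differed, at 3.18 in male libraries and 2.64 in female libraries on the log2 scale. The size of 1 read in each library gave a denominator of 7.87 to 30.4 M reads in males, with a median of 11.4 M, and of 7.27 to 30.6 M in females, with a median of 11.6 M.

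The 244 features were short and of low level. Their lengths, recovered from the deposited values, ran from 117 to 10146 bp with a median of 650.5 bp. The median male level ran from 1.05 to 22.4 FPKM over the features, and 27 features averaged at least 2 and 4 at least 3 on the log2 scale. The median number of reads behind a value was 3 to 285.5 per male library, with 16 for the middle feature, so that 75 features rested on fewer than 10 reads in a typical library. A read was found in every male library for 107 features, and every male library lay above every female library for 36. The rule used these levels, so both counts describe features chosen by them. The like shares over all features are not given here, so the counts cannot be called high or low. In bulk RNA of whole flies, fewer cells of a type and less RNA per cell cannot be told apart.

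**Figure D1:**
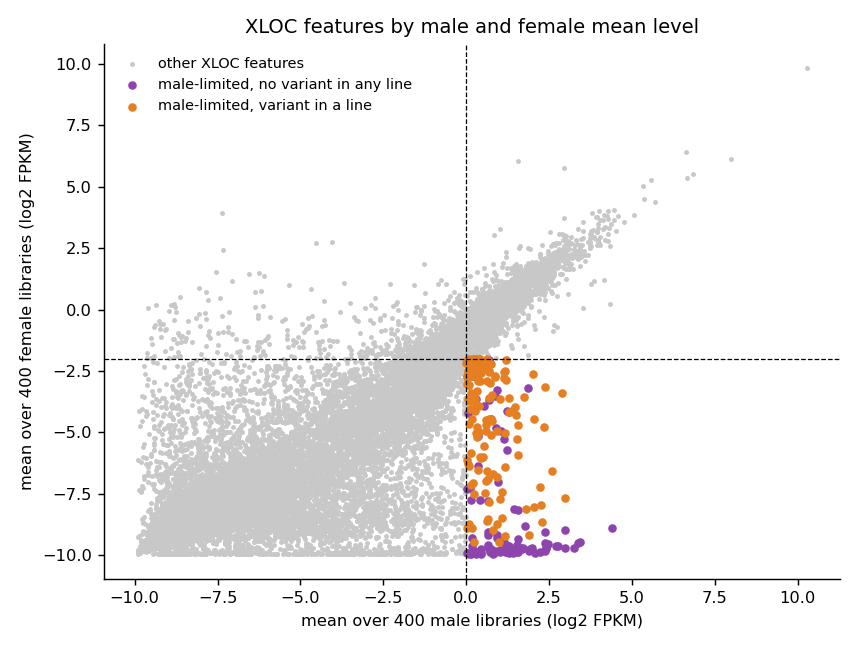
Mean level of each XLOC feature over 400 male libraries (x axis, log2 FPKM) and over 400 female libraries (y axis, log2 FPKM). Dashed lines mark the thresholds of 0 in males and -2 in females; coloured points are the 244 male-limited features, of which the 108 without a variant in any line (purple) crowd toward the floor of -9.97 in females, while the 136 with a variant (orange) spread up to the threshold.

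Features close to the thresholds show where the rule drew its line. Just inside the male threshold were XLOC_015537, XLOC_022893 and XLOC_007044, with male means of 0.01, 0.01 and 0.02. Just outside it were XLOC_007923, XLOC_025167 and XLOC_020742, with male means of -0.001, -0.002 and -0.02. The 3 features just inside the female threshold, XLOC_009454, XLOC_019562 and XLOC_023590, had female means of -2.01, -2.01 and -2.02. The 3 just outside it, XLOC_026925, XLOC_028814 and XLOC_019274, had female means of -1.99, -1.98 and -1.98. When each library was first centred on its median, 169 features met the thresholds, and all 169 were among the 244.

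The highest feature in males was XLOC_028492, of 892 bp. Its level in male libraries was 2.57 FPKM at the lowest, 22.4 at the median and 84.6 at the highest, with 243 reads behind the median value. In females it had 107 reads in all, spread over 64 libraries, and reached at most 2.06 FPKM. No female library overlapped the range of the male libraries.

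XLOC_028553, of 844 bp, followed with 4.3, 11.1 and 23.6 FPKM at the lowest, median and highest male library, and at most 0.23 FPKM in a female library. It was the steadiest of the 6 highest features, with an SD of 0.40 over male libraries on the log2 scale. XLOC_027983, of 574 bp, was nearly as steady, with an SD of 0.44 and male levels of 2.94, 8.14 and 19.3 FPKM, against at most 0.197 FPKM in females. The male and female libraries of these features did not overlap.

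XLOC_028304 (291 bp), XLOC_028033 (587 bp) and XLOC_027277 (1008 bp) were more variable. Male libraries had 0.715, 11.2 and 55.8 FPKM of XLOC_028304 at the lowest, median and highest, against at most 1.33 FPKM in females. For XLOC_028033 they had 0.532, 10.1 and 37.4 FPKM, against at most 0.539 FPKM in females. For XLOC_027277 they had 0.413, 8.48 and 27.7 FPKM, against at most 0.577 FPKM in females. In all 3 the lowest male library fell below the highest female library, and the lowest male line was line 235 each time. The feature with most reads was the long XLOC_027581 (4499 bp, singled out after its values were seen), with a median of 285.5 reads per male library.

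**Figure D2:**
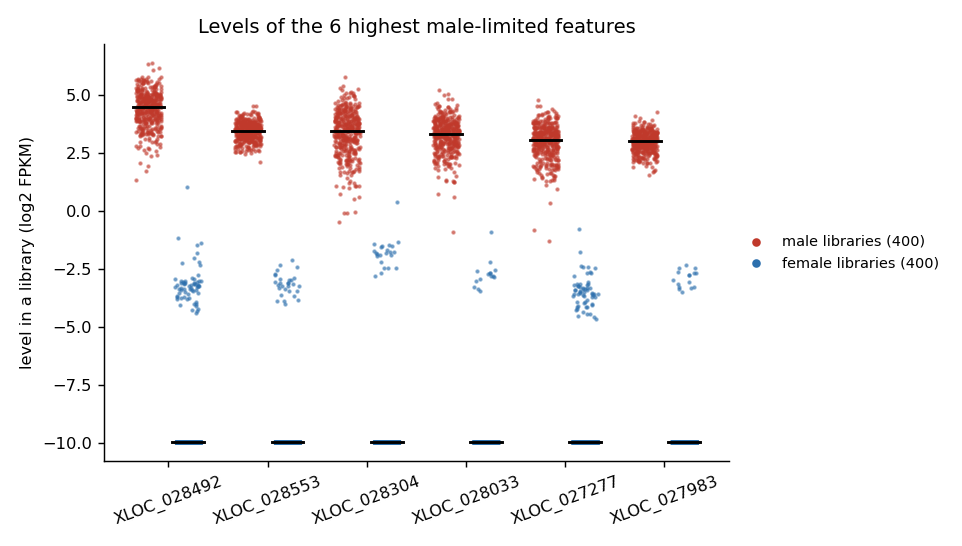
Level (log2 FPKM) of the 6 highest male-limited features in each of 400 male libraries (red) and 400 female libraries (blue), with black bars at the medians. Female medians all sit at the floor of -9.97, and the median male level of XLOC_028492 is 22.4 FPKM.

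The deposited variant table divided the 244 features sharply. It gives for each feature and line the density of DNA variants, and 108 of the 244 (44.3%) had none in any of the 200 lines. The share was 1.65% of annotated male-limited features (40 of 2429), 12.9% of XLOC features of both sexes (171 of 1331) and 3.52% of all 15017 features with a male mean of at least 0. These shares are descriptions and were not tested. Whether variants could be called in the features without any is not given in the sources used here.

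The features without variants also sat together in the numbering of the assembly. Of the 108, 91 had numbers that begin XLOC_027 or XLOC_028, and no male-limited feature with a variant had such a number. Of all XLOC features, 724 of the 778 that begin XLOC_027 and 723 of the 851 that begin XLOC_028 had no variant in any line. The number is the order in the assembly's list, and the positions behind it are not used here.

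The features with and without variants differed in what females held of them. The 108 without a variant had, at the middle feature, 0.129% as many reads, at equal depth, in females as in males, and the 136 with a variant had 11.4%. A read occurred in at most 20 of the 400 female libraries for 57 of the 108, and 1 of these, XLOC_028321, had no female read at all, so its share allows up to 3 reads over all female libraries. Of the 136 with a variant, none was found in so few female libraries, and 66 were found in more than 300. Among the 108, the 17 with other numbers were found in 327 female libraries at the median, against 16 for the other 91. The female level was part of the rule, so these values describe the features that met it.

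The features most widely found in females were XLOC_019974, XLOC_018937 and XLOC_011663, which had a read in 398, 395 and 394 of the 400 female libraries. They are long, at 4008, 4633 and 10146 bp, which makes a read likely at a low level. Their median levels were 1.06, 2.00 and 1.5 FPKM in males, against 0.172, 0.0987 and 0.0655 FPKM in females.

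All 244 features together summed to a median of 663 FPKM in male libraries and 52.6 FPKM in female libraries, a ratio of 7.93%. For the late testis genes the ratio was 0.0541%, for the accessory gland genes 0.0329% and for 7 Y chromosome genes 4.10%. The female traces were set beside the male transcripts found in some female libraries. Over 400 female libraries, the summed level of 89 features whose numbers begin XLOC_027 or XLOC_028 correlated with the late testis sum at r = 0.08 and with the accessory gland sum at r = 0.12, and the 153 remaining features at r = 0.01 and 0.04; XLOC_027835 and XLOC_028488 were left out of both sums because of the lines described next. In the 5 female libraries with the highest late testis sums, those 89 features summed to 6.08, 18.2, 6.42, 9.94 and 4.80 FPKM in falling order of the testis sum. All 5 lay above the median of 2.33 FPKM over all female libraries, whose range was 0.132 to 53.4 FPKM. The libraries that followed in that order had 1.84, 2.029, 4.419, 6.601, 2.32, 1.765 and 1.577 FPKM. These values lay on both sides of the median, so the pattern of the first 5 did not continue. The library of 18.2 FPKM, the second replicate of line 397, also lay above the 95th percentile of 10.8 FPKM and had the highest accessory gland sum in females, 334 FPKM. The part of these male transcripts in the female traces was not tested.

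XLOC_027835, of 404 bp, had no female read in 122 of the 200 lines and was far higher in females than in males in lines 287 and 235; it was chosen after its values were seen. In line 287 its level was 3.44 and 3.61 FPKM in the male replicates, against 165 and 194 FPKM in the female replicates. In line 235 it was 5.32 and 6.44 FPKM in males, against 86.9 and 51.2 FPKM in females. These are 1027 and 1511 female reads in line 287 and 421 and 255 in line 235, and line 287 alone held 67.1% of the feature's 3782 female reads. The next highest female line, line 808, had 4.62 and 4.45 FPKM in females and 9.48 and 9.35 FPKM in its males. Over all libraries the median was 2.30 FPKM in males and 0 in females.

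The females of these lines did not stand out in male marker genes. Their late testis sums were 3.02 and 12.0 FPKM in line 287 and 7.19 and 3.66 FPKM in line 235, against a median of 5.28 over all female libraries. Their accessory gland sums were 1.83 and 9.87 FPKM in line 287 and 7.79 and 1.99 FPKM in line 235, against a median of 4.28. XLOC_027835 was the only one of 35014 features whose female means in lines 287 and 235 were both at least 0 and at least 2 log2 units above every other line, a limit set after seeing the data. XLOC_028488, of 790 bp, also chosen after its values were seen, was found in females of many lines. Both female replicates had a read in 116 of the 200 lines and at least 1 FPKM in 67, neither had one in 57, and the female mean lay above the male mean in 10. It had 20.9 and 13.7 FPKM in males and 16.2 and 15.3 FPKM in females of line 486, and 6.91 and 4.48 FPKM in males and 10.1 and 12.0 FPKM in females of line 235. Its female and male line means correlated at r = 0.66 over 200 lines. Without these 2 features, the highest summed female level of the remaining 242 was 121 FPKM, against 250.2 FPKM with them, while the median was 50.9 against 52.6 FPKM.

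Differences between lines in males were tested next. The choice of features used the mean over the male libraries and did not use these differences directly. Each feature's variance between line means was compared with that between replicate pools by an F test with limma's moderated variance, over all 15017 features with a male mean of at least 0. Of the 244 features, 209 (85.7%) varied between lines at a Benjamini-Hochberg adjusted p below 0.05, against 89.6% of all features tested. The count for these features was close to that background. Of the 35 that did not pass, 33 had fewer than 10 reads at the median; the other 2, XLOC_028307 and XLOC_028320, had 12 and 10 reads and adjusted p-values of 0.112 and 0.229 in limma's moderated test.

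The share of male variance that lay between lines, the broad-sense heritability, had a median of 0.43 over the 244 features. The median was 0.72 for annotated male-limited features, 0.23 for XLOC features of both sexes and 0.51 for all features tested. The value rose with the reads behind it. It was 0.14 for the 75 features with fewer than 10 reads, 0.55 for the 96 with 10 to under 30, and 0.60 for the 73 with 30 or more. Within classes of male level the order of the groups was kept. For male means from 0 to under 1, the median was 0.35 for the XLOC features limited to males, 0.63 for annotated male-limited features and 0.17 for XLOC features of both sexes. For means of at least 2 it was 0.49, 0.74 and 0.30 in the same order. The lengths of the groups were not matched, and their differences were not tested.

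**Figure D3:**
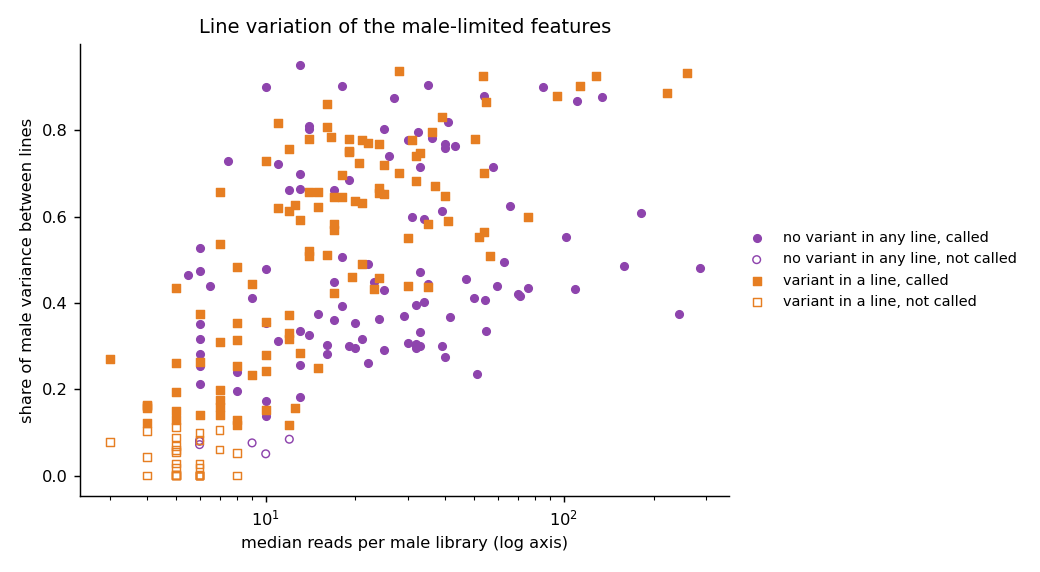
Share of male variance between lines (y axis) against the median number of reads per male library (x axis, log scale) for the 244 male-limited features. Purple circles had no variant in any line, orange squares had a variant, and open symbols are the 35 features without line variation at an adjusted p below 0.05; 33 of them had fewer than 10 reads.

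On the deposited scale, the 5 features with the largest share of variance between lines came in several shapes. The order depends on the pseudocount: 2 of the 5 stayed among the 5 highest with 0.1 FPKM, and 3 with 1 FPKM or with ranks. XLOC_028073, of 361 bp, had a share of 0.95 (limma's moderated F test, adjusted p = 2.26e-104). It was missing in some lines and graded over the others. Its share was 0.85 with a pseudocount of 0.1 FPKM, where it ranked 17 among the 244, 0.78 with 1 FPKM and 0.75 with ranks. Its line means had a median of 1.52 and reached 3.30 in line 738, where the replicates had 9.76 and 9.99 FPKM, while 9 lines had no read in either replicate. XLOC_022316, of 1945 bp, had a share of 0.94 and spread widely to both sides: its line means had a median of 0.16, 24 lines lay at least 2 log2 units below and 32 at least 2 above it. The highest line, line 714, had 23.6 and 18.7 FPKM, and the lowest, line 57, no read.

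XLOC_008994, of 2742 bp and 258.5 reads at the median, had a share of 0.93 with a narrow range. Its replicate SD was 0.16 on the log2 scale and its line SD 0.60, with 15.5 and 17.1 FPKM in the highest line, line 531, and 1.21 and 1.63 FPKM in the lowest, line 406. XLOC_015373, of 2662 bp, had a share of 0.93; 184 lines had means of at least 1, and 8 lay more than 2 log2 units below its median of 1.99. XLOC_005999, of 2545 bp, had a share of 0.92, with 5.24 and 5.22 FPKM in line 738 and 0.175 and 0.0765 FPKM in line 176. The replicate pools of a line gave like values for all 5, with correlations between replicates over 200 lines from 0.93 to 0.95. The share between lines is computed from the same replicate values, so this likeness follows from the choice of the 5.

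Some lines lacked a feature altogether, which is used here of a line whose male replicates both had no read. Of the 244 features, 55 (22.5%) were lacked by at least 1 line, against 7.90% of annotated male-limited features (192 of 2429) and 3.08% of XLOC features of both sexes (41 of 1331). The groups were not matched for level, and a lower level makes a count of 0 likelier. The median male mean was 0.68 for the 244, against 3.86 and 1.59 for the other groups in that order, on the log2 scale. How far level bears on the shares was not tested. Depth also bears on the count of 55, of which 31 had at least 10 reads in a typical male library and the other 24 had fewer. When a line was judged from a single replicate, 111 features were lacked in replicate 1 and 133 in replicate 2. Of the 55, 24 were lacked by 1 line, 11 by 2, 13 by 3 to 5 and 7 by at least 6 lines. Lines at the floor lower the male mean, which had to reach 0. The choice of features therefore held down how many lines could lack a feature, and these counts describe features chosen that way. In all there were 147 pairs of a line and a feature it lacked, and 88 of the 200 lines lacked at least 1 feature.

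XLOC_028073 was lacked by 9 lines. It had no read in lines 28, 31, 315, 321, 335, 382, 627, 884 and 894. There 3 reads over both male replicates together, the limit that a count of 0 allows, would have been 0.25 to 0.421 FPKM. The limits of the features below are pooled over both replicates in the same way. In the other 191 lines XLOC_028073 averaged -1.61 at the lowest and 1.55 at the median on the log2 scale, and in no line was it missing from a single replicate alone. That lowest value lay within the range of the limit. The gap was wider for XLOC_027296, named after its values were seen and lacked by 2 lines. Its limit was 0.0358 to 0.0403 FPKM, and its lowest other line averaged 0.18 on the log2 scale. XLOC_028464, of 588 bp, was lacked by the largest number of lines among features of at least 10 reads, 10 lines, with a limit of 0.148 to 0.259 FPKM, against a median of 2.09 FPKM in the other libraries. In 7 further lines it was missing from 1 replicate.

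XLOC_027299 (532 bp) was lacked by 9 lines, with a limit of 0.166 to 0.272 FPKM, against a median of 1.57 FPKM in the other libraries. XLOC_015537 (624 bp) was lacked by 7 lines, with a limit of 0.178 to 0.259 FPKM, against a median of 1.51 FPKM. XLOC_007508 (1023 bp) was lacked by 6 lines, 239, 306, 397, 405, 584 and 837, with a limit of 0.0928 to 0.143 FPKM, against a median of 3.37 FPKM and 40 reads. All 6 lines carried variants in XLOC_007508, as did 195 of the 200 lines. Of the 7 lines that lacked XLOC_015537, none carried a variant in it, and 73 of 200 lines did.

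Some features close in number were missing in the same lines. XLOC_019253 and XLOC_019254 were both lacked by lines 189, 535, 627 and 897, and their line means correlated at r = 0.82 over 200 lines. XLOC_019412 and XLOC_019420 were both lacked by lines 93, 382 and 716, and XLOC_019422 by lines 93 and 382. These 5 features, named after their values were seen, had medians of 6 to 8 reads in the libraries of the other lines. Among the 55 features, 4 of the 9 pairs within 10 numbers shared a lacking line, and 66 of 1476 pairs farther apart did.

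**Figure D4:**
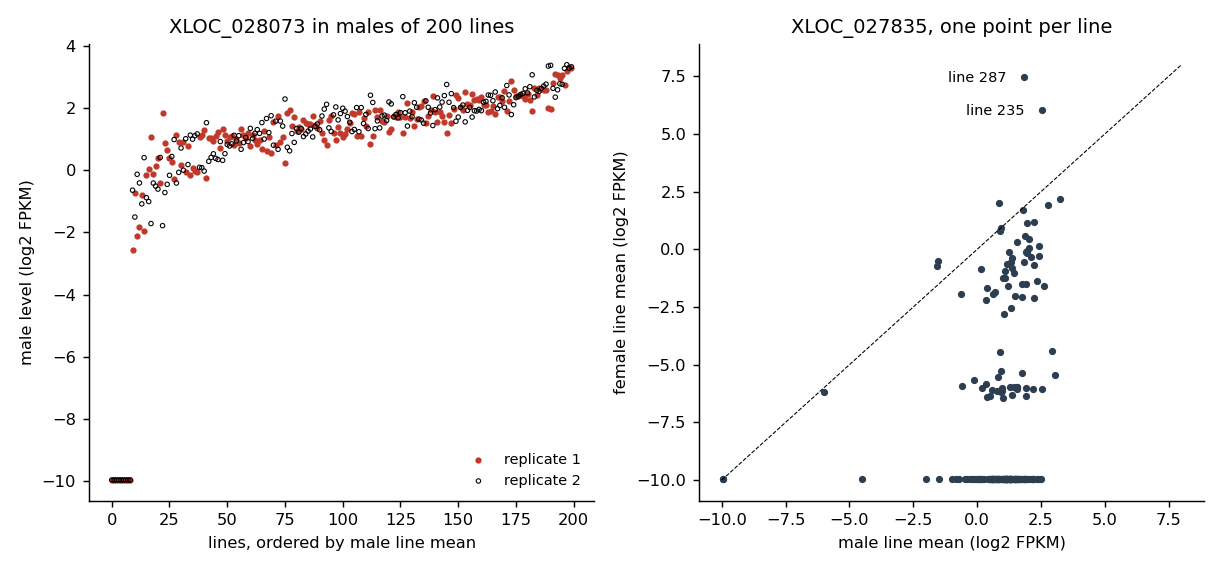
Left, level (log2 FPKM) of XLOC_028073 in the 2 male replicates of each line, with lines ordered by their mean; 9 lines sit at the floor of -9.97 in both replicates. Right, female line mean against male line mean (log2 FPKM) of XLOC_027835, with a dashed line of equal levels; lines 287 and 235 lie far above it.

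The features were then compared with each other over lines. Of 5778 pairs of features without a variant, 933 (16.2%) had line means correlated at r of at least 0.5 over the 200 lines. Of 9180 pairs of features with a variant, 7 (0.0763%) did. The share was 23.2% for annotated male-limited features and 0.0791% for XLOC features of both sexes. All lines share their libraries between features, so these correlations are descriptions and carry no test.

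The tightest pairs were XLOC_028033 with XLOC_028492, at r = 0.96, and XLOC_027277 with XLOC_028492, at r = 0.95. Counting XLOC_028492 itself, 20 of the 244 features correlated with it at r of at least 0.8, and none of the 20 had a variant in any line. Their mean ran from -0.33 in line 235, through 0.24 in line 361, to 3.16 in line 634 on the log2 scale. In line 235 XLOC_028492 had 3.34 and 2.57 FPKM in the male replicates, and in line 634 47.1 and 51.1 FPKM. The share of variance between lines was 0.28 to 0.55 in these 20, with a median of 0.37. Features that share sequence would share reads; how reads with several matches were counted is not given in the sources used here, and the separate counts of the 20 are uncertain for that reason.

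Line 235 was low or empty in further features. Its males had no read for XLOC_027280, XLOC_027434, XLOC_028048, XLOC_028161 and XLOC_028321, at depths of 12.0 and 9.56 M reads. Lines 535 and 627 also lacked 5 features each, and line 287 lacked 3, XLOC_027296, XLOC_028512 and XLOC_028591. All 8 features lacked by line 235 or line 287 were without a variant in any line, and they were named after their values were seen.

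The features were next set beside lists of marker genes by correlation over the 200 male line means. The features without a variant had a median r of 0.31 with the late testis genes, 0.36 with 10 testis regulators and 0.35 with 7 Y chromosome genes. The regulators came from a list of 11 that holds the meiotic arrest genes aly and comr, and also bol and twe. The features with a variant had medians of 0.07, 0.04 and 0.07. Annotated male-limited features had 0.55, 0.55 and 0.50. With the 22 accessory gland genes the median was -0.02 for features without a variant and 0.03 for those with one, and 1 feature, XLOC_025678, reached 0.51. With 3 ejaculatory duct and bulb genes 1 feature, XLOC_011423, reached 0.53. As a sum the regulators were not limited to males, with a median of 119.8 FPKM in male libraries and 58.1 FPKM in female libraries, a ratio of 48.5%. Levels of the single regulators are not given here. For the duct and bulb genes the ratio was 5.86%. The points of these correlations share libraries, and the values place no feature in a tissue.

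XLOC_028553 had the highest r with the regulators, 0.73, and with the Y chromosome genes, 0.75. The annotated feature most like it was FBgn0085550, at r = 0.89 over 200 lines, followed by FBgn0085539 at 0.83. FBgn0085550 was itself limited to males, with 5.97, 14.9 and 30.6 FPKM at the lowest, median and highest male library and at most 0.616 FPKM in females, and it had no variant in any line. It was the nearest annotated feature for 43 of the 244 features, all of them without a variant. The nearest annotated features of XLOC_027983 were CG15892 and CG12689, both on the X chromosome, at r = 0.75 and 0.74.

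For XLOC_028492 the nearest were FBgn0085550 at r = 0.60 and CG32719 at 0.55, for XLOC_028033 FBgn0085550 at 0.60 and FBgn0261846 at 0.58, for XLOC_027277 FBgn0085550 at 0.57 and FBgn0085539 at 0.56, and for XLOC_028304 FBgn0085550 at 0.50 and CG42360 at 0.47. Of the 108 features without a variant, 72 had an annotated feature at r of at least 0.5. For 45 of the 72 that nearest feature had no entry in the BDGP6.54 annotation, as did 256 of the 12411 annotated features tested (2.06%). Most of the 45 had the same nearest feature, FBgn0085550, which was nearest for 43 of the 108 at r from 0.42 to 0.89. The 45 are therefore largely 1 annotated feature counted many times, and the shares are not comparable. For 2 of the 72 it lay on the Y chromosome, where 8 of the 12411 lay; these were XLOC_028201 with ORY, at r = 0.81, and XLOC_027316 with ARY, at r = 0.66, both named after their values were seen.

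For features with variants, the male level of each line was set against its variant density, which the choice of features did not use. The slope of the male line mean on the deposited log2 density was tested with limma's moderated t. The test covered 14338 features that had at least 10 lines away from the commonest density. Of the 244 features, 129 entered, all among the 136 with a variant. Lines without a variant stand at the floor of the density scale, far below any line with 1. Where a feature had such lines, its slope largely sets presence against absence of a variant and is no graded response. Of the 129, 44 (34.1%) passed at a Benjamini-Hochberg adjusted p below 0.05, against 25.1% of all features tested. Of the 129 tested, 19 were called with higher levels at higher density and 25 with lower levels. Of all 14338 features tested, 1410 (9.83%) were called with higher levels and 2191 (15.3%) with lower levels. With replicate 2 alone 29 of the 129 passed, against 19.95% of all features tested, and with replicate 1 alone 34, against 21.3%. A variant within a feature can change how many of its reads match the reference genome as well as the RNA itself, and how far each bears on the slopes was not tested.

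Of the negative slopes, that of XLOC_005078 (542 bp) had the largest moderated t. The 50 lines with a variant averaged -0.67 ± 1.34, and the 150 without one 1.23 ± 1.00 (SD over lines, log2 FPKM). The slope was -0.16 ± 0.01 (SE) log2 units per unit of log2 density (limma, adjusted p = 7.62e-20), and the line means of the groups overlapped. In XLOC_011225 (618 bp), the 109 lines with a variant averaged 0.82 ± 1.31, and the 91 without one 1.63 ± 0.86 (slope -0.08, limma, adjusted p = 1.46e-07). In XLOC_017062 (367 bp), the 94 lines with a variant averaged 0.37 ± 1.40, and the 106 without one 1.40 ± 1.30 (slope -0.09, limma, adjusted p = 3.48e-07). The highest density of XLOC_017062 in a line corresponds to 222 variants, a dense value for its length.

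Of the positive slopes, that of XLOC_017832 (515 bp), in which no line had more than 2 variants, had the largest moderated t. The 91 lines with a variant averaged 1.78 ± 0.87, and the 109 without one 0.50 ± 0.84 (slope 0.12 ± 0.01, limma, adjusted p = 4e-19). In XLOC_026948 (576 bp), the 96 lines with a variant averaged 0.90 ± 1.18, and the 104 without one -0.75 ± 1.22 (slope 0.14, limma, adjusted p = 1.01e-18). In XLOC_015531 (162 bp), the 162 lines with a variant averaged 0.53 ± 1.87, and the 38 without one -2.18 ± 2.90 (slope 0.21, limma, adjusted p = 8.34e-10); this feature had 3 reads at the median, and lines without a read weigh heavily in its means. The groups of lines overlapped in each of these features.

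**Figure D5:**
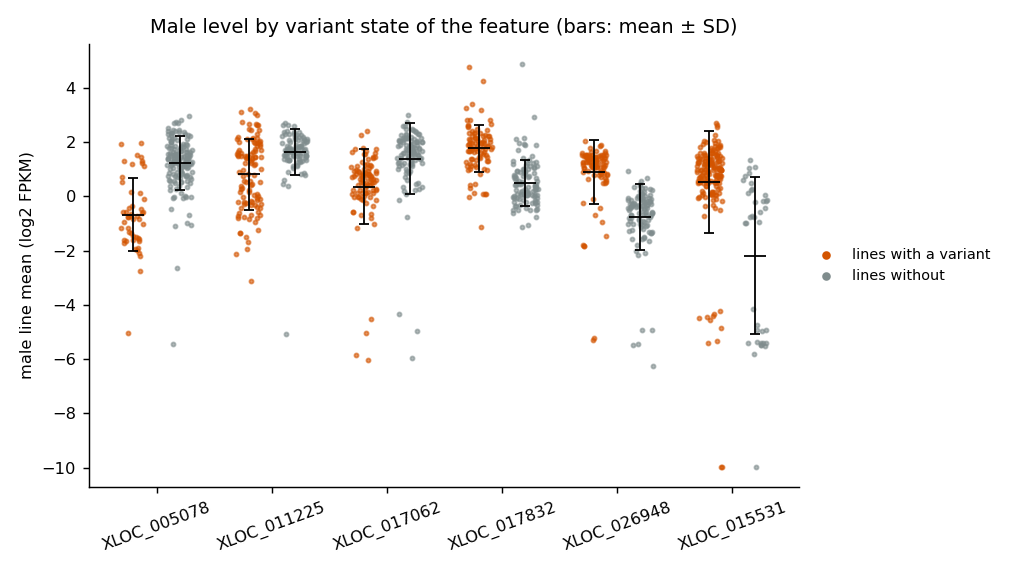
Male line means (log2 FPKM) of the 3 features whose slope on variant density had the largest negative moderated t and the 3 with the largest positive one, for lines with a variant in the feature (orange, left) and without (grey, right); bars are the mean ± SD over lines. In XLOC_005078 the 50 lines with a variant average -0.67 and the 150 without one 1.23.

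The authors' deposited table of male line means held 193 of the 244 features, and their table of female line means held 30. All 193 were among the 209 that varied between lines here, and 16 of the 209 were not in the authors' deposited table. For the 193, the line means computed from the libraries correlated with those of the authors' deposited table at r from 0.79 to 1.0, with a median of 0.99.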

How the data were processed

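The deposited table gives log2(FPKM + 0.001) for each feature in 800 libraries, as computed by the authors; other deposited tables by the authors give log2 variant density and log2 line means. Per the submitters' processing notes the tools included cutadapt, BWA 0.7.10, STAR 2.4.0e, Cufflinks 2.2.1, HTSeq and edgeR, with the builds BDGP5 and dm3; neither their order nor their settings are known here. FPKM is not a count, so tests ran on the log2 scale. The features and marker lists were chosen with earlier results of these data known.

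Depth, feature lengths and reads were recovered from the size of 1 read in each library. Of values below 20 reads in the 244 features, 99.997% were whole within 0.1 reads, and for 136 features the length matched that in the variant table. The recovered depth is the FPKM denominator.

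Line variation was tested on the 400 male libraries by an F test, and variant density on 200 male line means by a t test, two-sided, both with limma 3.58.1 (squeezeVar, R 4.3.3) and Benjamini-Hochberg adjustment over all features with a male mean of at least 0. Both were tested on simulated data with normal noise and no floor, so features with many values at the floor are not covered by it. Relatedness between lines was not modelled, and the sequencing pool of a library is not used here. Replicates are separate pools of flies of an inbred line; line means weight them equally. Named features were the 6 highest in males, the 5 of highest heritability, the 5 lacked by most lines with at least 10 median reads, the 3 slopes of largest moderated t in each direction, the 3 most widely found in females, the 3 nearest each threshold on either side, the 2 tightest pairs, and the 2 annotated features most like each of the 6 highest; others are said to be chosen after their values were seen. The limits given for a count of 0 cover counting error only, and values after ± are the SD over lines or the SE of a slope. Alternatives were other pseudocounts, filters, centring, ranks, a replicate block and left-out replicates or lines.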

Additional observations from a re-analysis of the deposited data

Results flagged for a closer look

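In 3 features the order of the sexes was turned round in single lines, where both female replicates had at least 10 reads and lay at least 1 log2 unit above both male replicates. The difference of male minus female level was -5.66 log2 units in line 287 and -3.51 in line 235 for XLOC_027835. It was -2.14 in line 88 and -1.63 in line 361 for XLOC_017062, and -2.77 in line 502 for XLOC_025392. XLOC_017062 had 1.16 and 1.20 FPKM in males and 5.03 and 5.39 FPKM in females of line 88, and 5.42 and 4.45 FPKM in males and 17.0 and 13.5 FPKM in females of line 361. XLOC_025392 had 2.2 and 0.853 FPKM in males and 12.6 and 6.89 FPKM in females of line 502, on 6 and 2 male reads. The differences between these lines and the others were not tested.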

How the results depend on the processing

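The number of features limited to males was 244 as reported, 87 with a male minimum of 1 and 160 with a female maximum of -4, both subsets of the 244; it was 250 to 253 with a single replicate, and 246 without lines 45 and 492. Line variation was called in 209 of 244 features as reported and in 205 to 222 with other pseudocounts, centring, no filter, ranks or line 45 left out. With a male mean of at least 2, all 27 features tested were called. Over all features tested the share called was 89.6% as reported, 64.0% with no filter and 92.9% with a male mean of at least 2. It was 89.5% to 92.1% with other pseudocounts, centring, ranks or line 45 left out. The median heritability, 0.43 as reported, was 0.39 to 0.49 under all of these changes. Added after seeing the data, the restriction to at least 10 median reads gave 167 called features and a median heritability of 0.58. With a replicate block 210 features were called and the median heritability was 0.45; same-numbered libraries of different lines deviated together at a median r of 0.04, and 17.8% of the pairs of lines exceeded 0.1, so they share a number and no pairing was established. Single features did shift with the number: replicate 2 was higher in 141 of 200 lines for XLOC_028492, 149 for XLOC_028553, 140 for XLOC_028304 and 46 for XLOC_027983, whose heritabilities were 0.46, 0.57, 0.39 and 0.54 with the block, against 0.37, 0.43, 0.28 and 0.41 without it. Over all features tested, 14082 were called with the block, against 13452 without it. Leaving out a replicate could not be fitted for line variation, since no residual would remain. Variant density was called in 44 features as reported, in 38 to 58 with other pseudocounts, centring, no filter, ranks or line 45 left out, in 28 of 103 as present or absent, in 4 of 11 with a male mean of at least 2, and in 29 to 34 with 1 replicate left out. Over all features tested the share called was 25.1% as reported, 33.8% with ranks, 17.2% with no filter and 24.6% as present or absent. It was 25.8% with a male mean of at least 2, 19.95% without replicate 1 and 21.3% without replicate 2. Of the called features among the 244, 43.2% had a positive slope as reported and 41.5% to 51.7% under the alternatives. Features lacked by a line numbered 55 as reported, 31 with at least 10 median reads, 140 where a line mean at least 4 log2 units below the median over lines was counted, and 111 to 133 with 1 replicate left out. No slope of a named feature reversed. Depth limits the features under 10 reads most.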
